A study of Mus musculus with 6 samples.

Results

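The genes described here encode the heat shock chaperones of the cytosol and the mitochondrion, with their cochaperones and the transcription factors that control them. They were chosen by name: 43 mouse genes of the HSP70, HSP110, HSP90, small heat shock, J-domain, BAG and CCT families, the mitochondrial chaperonin, the cochaperones of HSP90 and HSP70, and the heat shock factors. Of these, 41 were measured, among 12469 genes tested in all. Hsf1 and Hsp90ab1 had no probe set that the array's annotation assigns to them alone, and they were not analysed here. Each gene was read from its brightest probe set, a probe set being the group of short probes that together report 1 transcript.

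Livers came from 3 male GHRH-KO mice, in which the Ghrh gene is disrupted throughout the body, and from 3 male wild-type littermates (control). Both groups shared a mixed C57BL6 and 129SV background, an age of 10 months according to the methods, and a fast of 6 to 8 h before the liver was taken and kept in RNAlater. GHRH is the hypothalamic hormone that drives growth hormone release from the pituitary, and the mutants had an isolated growth hormone deficiency. The comparison asked how the liver transcriptome differed between these long-lived dwarf mice and their littermates. All values below are RMA values on the log2 scale, listed for GHRH-KO livers 4, 5 and 6 and then for control livers 1, 2 and 3, and 1 unit is a 2-fold difference. Each value is 1 animal on 1 array, so the number of animals limits the precision.

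Heat shock chaperones bind unfolded or newly made proteins and keep them from aggregating. HSP70 works in cycles of ATP hydrolysis: J-domain proteins deliver the client, while HSP110 and BAG proteins release the nucleotide. HSP90 and its cochaperones finish kinases and steroid receptors, CCT folds actin and tubulin, and HSP60 with HSP10 folds proteins imported into mitochondria. Under proteotoxic stress heat shock factors bind inverted repeats of the letters GAA in promoters and induce many of these genes, whereas several family members, such as Hspa8, are made at all times and are abundant in liver.

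Igf1, the growth hormone target made by liver, read 6.72, 6.79 and 6.92 in GHRH-KO livers and 12.16, 12.52 and 12.49 in control livers. Ghrh itself stayed between 4.40 and 4.57 in GHRH-KO livers and between 4.41 and 4.75 in control livers, a background reading that checks nothing in this organ. Hepatocyte markers averaged 13.92 to 13.98 in GHRH-KO livers and 13.80 to 13.93 in control livers. In bulk liver, fewer cells of a type and less RNA per cell cannot be told apart. GHRH-KO liver 5 stood apart from the others: 441 of the probe sets tested (1.75%) read more than 1 log2 unit below every other array there, against 4 to 70 in the other 5 arrays. Among the 98 chaperone probe sets tested, 5 did so in GHRH-KO liver 5 and 0 in each other array.

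Of the heat shock chaperones, Hspa4l was the single gene called higher in GHRH-KO livers, and none was called lower. It passed both limits of a call, an FDR (the Benjamini-Hochberg adjusted p of limma) under 0.05 and a fold change above 1.5 or below 0.67. That is 1 of 41 genes upward, where 0.786% of all genes tested were called up, and 0 of 41 downward, where 0.97% were called down. Of the 41 genes, 23 averaged higher and 18 lower in GHRH-KO livers, and the median log2 fold change was 0.08, beside 0.003 over all genes. With the mean of all probe sets of each gene the median was -0.041, so its sign depended on the choice of probe set. Before adjustment 6 genes were higher at p under 0.05 (14.6%, against 9.15% of all genes) and 3 lower (7.32%, against 10.1%). The 3 GHRH-KO values lay wholly above the 3 control values for 9 genes (22.0%, against 12.7% of all genes) and wholly below them for 5 (12.2%, against 15.7%). The 95% interval of the fold change stayed within 1.5-fold in both directions for 19 of the 41 genes (46.3%, against 56.1% of all genes), and for the other 22 a difference beyond 1.5-fold was not excluded by these 6 livers.

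**Figure D1:**
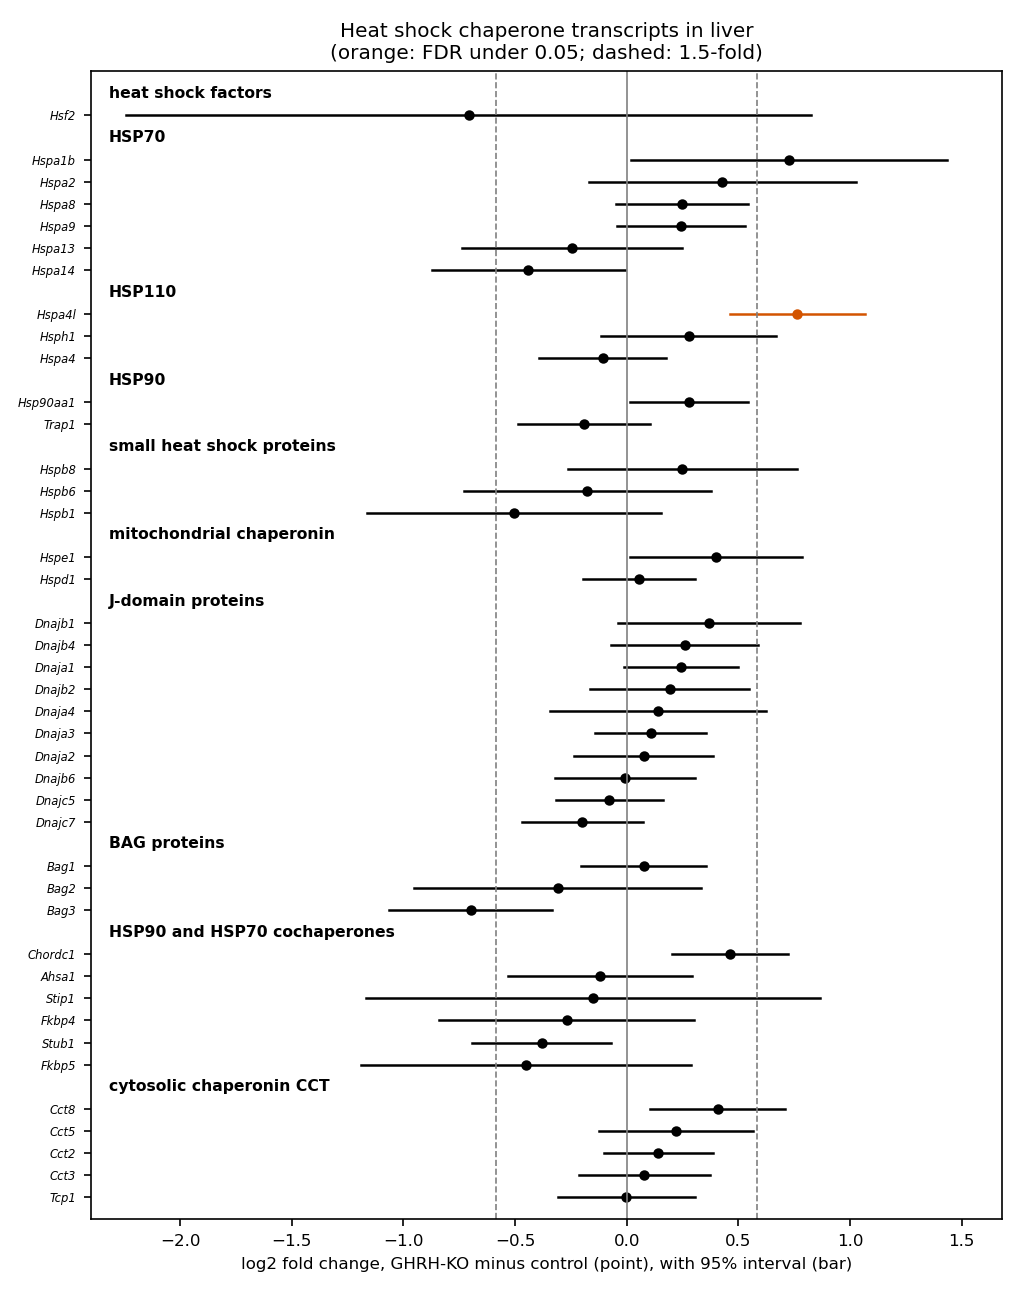
Log2 fold change, GHRH-KO minus control (horizontal axis), of the 41 measured chaperone genes, grouped by family, with the 95% interval of the limma fit as a bar and dashed lines at 1.5-fold. Only Hspa4l, in orange, had an FDR under 0.05, and 22 of the 41 bars reach past a dashed line.

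Promoters of 5 genes are shown because they hold, or lack, the element that heat shock factors bind and because they include genes with low p and classic heat-induced genes. RefSeq promoter windows (GRCm38.p6), from 250 bases before to 50 after the start site, were found for 36 of the 43 genes. The 2-unit element, GAANNTTC or TTCNNGAA read on both strands, was present for 17 of the 36 genes (47.2%), against 17% of all 27025 genes with a window. The 3-unit element, in which 2 free bases and one more GAA or TTC in turn extend the shorter element, was present for 5 (13.9%: Hsph1, Hspd1, Hspe1, Dnajb6 and Chordc1), against 0.662% of all genes. Capitals mark every 2-unit match in the sequences, each written 5′ to 3′ along its gene.
Hspa4l, chr3:40745363-40745662, plus strand: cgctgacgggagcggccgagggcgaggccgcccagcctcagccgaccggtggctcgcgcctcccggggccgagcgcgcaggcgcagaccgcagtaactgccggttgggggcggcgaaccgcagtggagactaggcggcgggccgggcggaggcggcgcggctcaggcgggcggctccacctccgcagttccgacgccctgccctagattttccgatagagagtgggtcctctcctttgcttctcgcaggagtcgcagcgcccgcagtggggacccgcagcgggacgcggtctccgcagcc
Chordc1, chr9:18292017-18292316, plus strand: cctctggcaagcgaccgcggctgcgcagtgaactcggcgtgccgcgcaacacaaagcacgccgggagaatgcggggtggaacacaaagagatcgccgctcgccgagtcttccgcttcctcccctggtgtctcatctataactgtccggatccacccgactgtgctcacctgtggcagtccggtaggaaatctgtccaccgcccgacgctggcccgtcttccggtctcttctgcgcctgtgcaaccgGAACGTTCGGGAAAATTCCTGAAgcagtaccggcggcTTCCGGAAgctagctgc
Hspa1b, chr17:34959189-34959488, minus strand: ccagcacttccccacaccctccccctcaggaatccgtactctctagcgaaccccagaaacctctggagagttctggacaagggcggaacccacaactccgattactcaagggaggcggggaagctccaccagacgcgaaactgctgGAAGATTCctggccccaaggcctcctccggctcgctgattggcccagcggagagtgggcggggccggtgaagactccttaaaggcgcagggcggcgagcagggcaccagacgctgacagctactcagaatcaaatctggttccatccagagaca
Hspe1, chr1:55087898-55088197, plus strand: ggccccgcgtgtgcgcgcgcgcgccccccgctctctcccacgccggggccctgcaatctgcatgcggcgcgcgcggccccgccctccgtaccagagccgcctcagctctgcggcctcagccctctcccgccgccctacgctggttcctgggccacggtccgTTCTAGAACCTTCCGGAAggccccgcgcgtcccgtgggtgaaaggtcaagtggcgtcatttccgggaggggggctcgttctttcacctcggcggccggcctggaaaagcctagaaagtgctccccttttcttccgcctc
Bag3, chr7:128523333-128523632, plus strand: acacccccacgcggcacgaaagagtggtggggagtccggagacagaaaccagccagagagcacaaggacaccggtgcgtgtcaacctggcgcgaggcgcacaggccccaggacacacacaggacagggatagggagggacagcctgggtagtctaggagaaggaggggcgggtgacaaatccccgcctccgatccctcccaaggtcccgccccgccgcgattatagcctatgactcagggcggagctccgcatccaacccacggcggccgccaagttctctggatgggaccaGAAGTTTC
Hspa4l, the called gene, had no match in this window. Chordc1 had 5 matches, the first beginning at -4 and the last at 33 bases from the start site. Hspe1 had 3 overlapping matches that begin at -89 bases, and 285 bases of its window also belong to a window of Hspd1, the gene that runs the other way. Hspa1b had 1 match at -104 bases and Bag3 had 1 at 42 bases. A match describes letters and shows no binding.

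Among the genes that carry the 2-unit element, 11 of 17 averaged higher in GHRH-KO livers, with a median log2 fold change of 0.14. Of the 19 without it, 9 averaged higher, with a median of -0.0020. The 5 genes with the 3-unit element had a median of 0.28, and 4 of them averaged higher. That median is the value of Hsph1, which was 0.11 without control liver 1 and 0.008 by its other probe set. Hspd1 and Hspe1, both among the 5, share 285 bases of a window. All these medians use the brightest probe set only, and no value over all genes with an element was calculated. The genes ran both ways within each class: Chordc1 and Bag3, both with an element, stood near opposite ends of the family.

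Hspa4l encodes an HSP110 protein, a relative of HSP70 that acts as its nucleotide exchange factor and is best known from testis and from osmotic stress. Its brightest probe set (1449010_at) read 8.32, 8.32 and 8.04 in GHRH-KO livers, against 7.48, 7.36 and 7.55 in control livers, and the groups did not overlap. Means were 8.23 ± 0.16 in GHRH-KO livers and 7.46 ± 0.10 in control livers (SD, n = 3 each), a 1.70-fold higher level with a 95% interval of 1.38 to 2.09 (log2 fold change 0.76, SE 0.128, limma FDR 0.0416). Each of the other 4 Hspa4l probe sets also kept every GHRH-KO value above every control value. Their log2 fold changes were 0.75 (1418253_a_at, FDR 0.0862), 0.59 (1439093_at, FDR 0.160), 0.88 (1429106_at, FDR 0.0368) and 0.45 (1458385_at, FDR 0.183). The call lay close to the limit: with any 1 of the 6 livers left out the FDR was 0.0753 to 0.130, at log2 fold changes of 0.71 to 0.86. Calls over all genes also dropped in those fits, to 82 to 166 genes from 219.

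**Figure D2:**
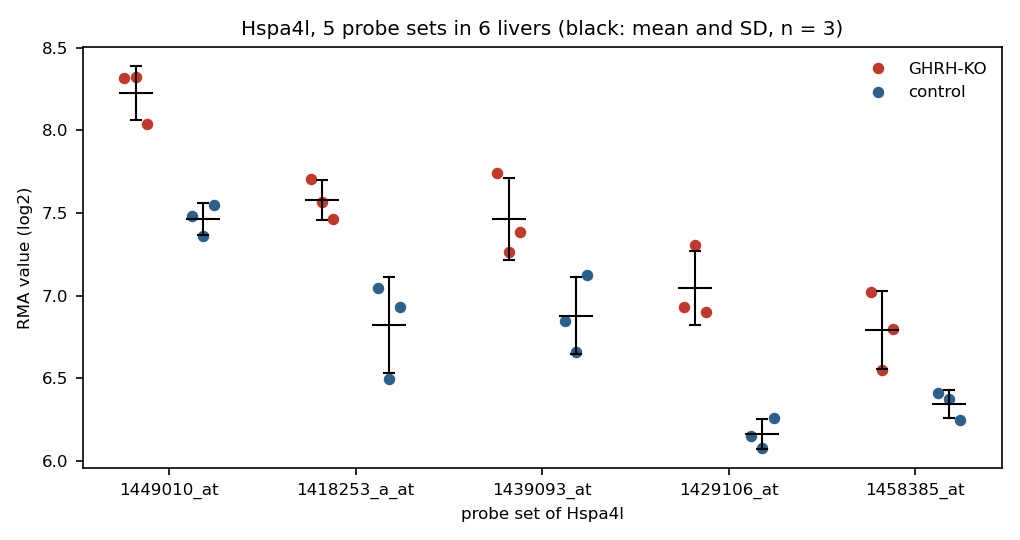
RMA value (log2, vertical axis) of the 5 Hspa4l probe sets (horizontal axis) in each liver, GHRH-KO in red and control in blue, with the mean and SD of 3 livers in black. In every probe set the 3 red points lie above the 3 blue points, and probe sets are not to be compared with each other in height.

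The other HSP110 genes did not pass the test. Hsph1 (HSP105), the strongly heat-inducible member, read 10.83, 10.70 and 10.63 in GHRH-KO livers and 10.11, 10.66 and 10.56 in control livers (log2 fold change 0.28, FDR 0.413). The difference rested on control liver 1, the lowest of the 6, and without it the log2 fold change was 0.11. Hspa4 (APG-2), made at all times, read 9.78, 9.62 and 9.69 in GHRH-KO livers and 9.92, 9.65 and 9.83 in control livers. Its fold of 0.929 had a 95% interval of 0.763 to 1.13, so a change of 1.5-fold was outside it.

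Of the 6 HSP70 genes 4 averaged higher in GHRH-KO livers, and none was called. Hspa1b, the classic stress-induced HSP70, read 12.63, 12.16 and 11.42 in GHRH-KO livers and 11.09, 11.38 and 11.57 in control livers. GHRH-KO liver 6 lay inside the control range, and the 1.65-fold mean difference had an interval of 1.01 to 2.70 and an FDR of 0.267. Its other probe sets gave log2 fold changes of 0.65 and 0.62 with the same order of GHRH-KO livers. Hspa1a, a neighbouring gene of nearly the same sequence whose probes can take up the same RNA, read 7.25, 6.55 and 5.25 in GHRH-KO livers and 5.76, 5.91 and 5.64 in control livers (FDR 0.523). Without GHRH-KO liver 4 the log2 fold change of Hspa1b was 0.45 (FDR 0.403), and without GHRH-KO liver 6 it was 1.05 (FDR 0.139).

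Fos and Mt1, stress-responsive genes outside the family, were also highest in GHRH-KO liver 4. Fos read 10.02, 6.62 and 5.81 in GHRH-KO livers and 6.40, 6.34 and 5.24 in control livers, and Mt1, a metallothionein, read 12.24, 10.72 and 9.47 in GHRH-KO livers and 10.80, 9.67 and 8.45 in control livers, both named after their values were seen. Of 10 immediate early genes, which respond within minutes to handling and stress, 9 averaged higher in GHRH-KO livers and none was called, with log2 fold changes from -0.15 (Ier2) and close to 0 (Junb and Myc) to 3.07 (Egr1). Egr1, also named after its values were seen, read 10.73, 8.42 and 8.44 in GHRH-KO livers and 7.17, 5.80 and 5.42 in control livers, with no overlap (FDR 0.0907). The list's mean level was 7.32 to 8.63 in GHRH-KO livers and 6.81 to 7.40 in control livers, and their part in the Hspa1b values was not tested.

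Hspa8 (HSC70), the everyday cytosolic HSP70, read 13.18, 13.05 and 13.17 in GHRH-KO livers and 12.70, 12.96 and 13.00 in control livers. The groups did not overlap, but the 1.19-fold difference missed the threshold (FDR 0.347). Its probe sets disagreed: 1420622_a_at gave a log2 fold change of 0.89 (FDR 0.107), 1420623_x_at gave 0.58 (FDR 0.153) and 1431182_at gave -0.24 (FDR 0.683). Hspa9 (mortalin), the HSP70 of mitochondria and the motor of protein import, read 11.39, 11.33 and 11.34 in GHRH-KO livers and 11.12, 10.95 and 11.26 in control livers (FDR 0.338). Another of its probe sets gave 0.52 (1447728_x_at, FDR 0.130) and another 0.01 (1418504_at), so both constitutive HSP70 genes leaned upward in some probe sets and not in others.

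Hspa14, an HSP70 of the ribosome-associated complex that meets nascent chains, went the other way, with 7.09, 6.50 and 7.00 in GHRH-KO livers and 7.39, 7.11 and 7.41 in control livers. All 3 GHRH-KO values lay below the control values (0.737 of the control level, log2 fold change -0.44, FDR 0.269). Without GHRH-KO liver 5 the value was -0.26 (FDR 0.449), and the other 2 probe sets gave -0.09 and -0.13. Hspa13, a microsomal HSP70 and the sole gene of the list assigned to the endoplasmic reticulum, had a log2 fold change of -0.25 (FDR 0.561) in its brightest probe set and -0.82 (FDR 0.152) in 1453172_at. Hspa2, the HSP70 of spermatocytes, read 4.76, 5.46 and 4.55 in GHRH-KO livers and 4.67, 4.21 and 4.61 in control livers. These readings were close to background: Hspa2, Bag2 and Hsf2 were the 3 genes whose mean lay within 1 log2 unit of the highest Ghrh reading, 4.75.

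HSP90 was represented by Hsp90aa1, the inducible cytosolic form, and Trap1, the mitochondrial form. Hsp90aa1 read 12.58, 12.42 and 12.53 in GHRH-KO livers and 12.14, 12.23 and 12.32 in control livers, so every GHRH-KO liver was above every control liver by this probe set (1.21-fold, 95% interval 1.01 to 1.46, FDR 0.256). Its other probe sets gave log2 fold changes of 0.07 and -0.01, with GHRH-KO liver 5 the lowest array in both. Trap1 read 10.19, 10.15 and 10.34 in GHRH-KO livers and 10.31, 10.59 and 10.36 in control livers (log2 fold change -0.19, FDR 0.454), whereas 1437379_x_at placed all GHRH-KO values above the control values (0.26, FDR 0.256). The direction of Trap1 therefore depended on the probe set.

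Small heat shock proteins form oligomers that hold unfolded clients without ATP. Hspb1 (HSP25) read 7.93, 8.86 and 8.27 in GHRH-KO livers and 9.21, 8.90 and 8.46 in control livers, with overlapping groups (log2 fold change -0.50, FDR 0.382). The value was -0.76 (FDR 0.222) without GHRH-KO liver 5, -0.29 (FDR 0.598) without GHRH-KO liver 4 and -0.33 (FDR 0.643) without control liver 1. Hspb8, which works with BAG3 in the autophagic removal of clients, read 11.74, 11.16 and 11.00 in GHRH-KO livers and 10.99, 11.30 and 10.85 in control livers (0.25, FDR 0.571). GHRH-KO liver 4 was the highest, and the value was 0.030 without it, 0.37 without control liver 2, 0.40 without GHRH-KO liver 6 and 0.15 without control liver 3. Hspb6, described mainly from muscle, had a log2 fold change of -0.18 (FDR 0.721). For none of these 3 genes did the GHRH-KO and control values lie apart.

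In mitochondria the partners HSP60 and HSP10 were measured by Hspd1 and Hspe1, genes that face away from each other across a shared promoter region. Hspe1 read 12.60, 12.74 and 12.80 in GHRH-KO livers and 12.19, 12.11 and 12.64 in control livers (1.32-fold, 95% interval 1.01 to 1.72, FDR 0.264). Control liver 3 lay among the GHRH-KO livers, and without it the log2 fold change was 0.56 (FDR 0.158). Hspd1 read 12.52, 12.42 and 12.40 in GHRH-KO livers and 12.34, 12.37 and 12.47 in control livers, a 1.04-fold difference with an interval of 0.872 to 1.24. Over the 5 mitochondrial genes (Hspa9, Trap1, Hspd1, Hspe1 and Dnaja3) 4 averaged higher with a median log2 fold change of 0.11 (0.054 with the mean of all probe sets of each gene), and over the 35 genes of cytosol and nucleus 19 did so with a median of 0.08. No gene of the mitochondrial group was called.

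J-domain proteins bring clients to HSP70 and trigger its ATPase. Of 10 measured, 7 averaged higher and 3 lower in GHRH-KO livers, with a median log2 fold change of 0.12. None was called, and the lowest FDR by the brightest probe sets was 0.295 (Dnaja1). That median was 0.067 without GHRH-KO liver 5, and it was -0.052 with the mean of all probe sets of each gene and -0.15 with the probe set of lowest p, so its sign was not stable. Dnajb1 (HSP40), the inducible member, stood at the upper end with 9.37, 9.38 and 9.17 in GHRH-KO livers and 8.69, 8.84 and 9.28 in control livers (0.37, FDR 0.314). Control liver 3 was inside the GHRH-KO range, the value was 0.24 without control liver 1, and the other probe set gave 0.07 (FDR 0.828). Dnajc7, which bridges HSP70 and HSP90, stood at the lower end with 9.21, 9.04 and 9.13 in GHRH-KO livers and 9.35, 9.42 and 9.21 in control livers (-0.20, FDR 0.397). The general cytosolic partner Dnaja1 kept all GHRH-KO values (12.24 to 12.35) above the control values (11.96 to 12.13) at 1.18-fold. Its other probe sets also had no overlap, at log2 fold changes of 0.17 (1460179_at, FDR 0.486) and 0.62 (1459835_s_at, FDR 0.181). Dnajc5, a vesicle-bound member, had all GHRH-KO values below the control values at a log2 fold change of -0.08. All 5 of its probe sets averaged lower. Among them, 1436179_a_at (-0.32, FDR 0.224) and 1448851_a_at (-0.49, FDR 0.270) also had no overlap.

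BAG proteins release nucleotide from HSP70, and BAG3 also links HSP70 to small heat shock proteins and to selective autophagy. Bag3 read 9.94, 9.40 and 9.56 in GHRH-KO livers and 10.33, 10.30 and 10.37 in control livers. The control livers lay within a narrow band and all GHRH-KO livers lay below it, with means of 9.63 ± 0.27 in GHRH-KO livers and 10.33 ± 0.03 in control livers (SD, n = 3 each). The level was 0.616 of the control level (95% interval 0.479 to 0.793, log2 fold change -0.70), and the FDR of 0.0845 missed the threshold. With any 1 liver left out the FDR of Bag3 was 0.0553 to 0.232. With arrays weighted by their quality it was 0.0296, in a fit that called 536 of all genes in place of 219. Bag1, which also binds the death regulator BCL2, was at the other end of the family with 10.60, 10.83 and 10.56 in GHRH-KO livers and 10.64, 10.55 and 10.58 in control livers (0.08, FDR 0.764). Bag2, near background, had a log2 fold change of -0.31 (FDR 0.574).

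The cochaperones of HSP90 and HSP70 divided. Chordc1, an HSP90 cochaperone that is heat-inducible and carries the densest elements among the promoters shown, read 10.18, 10.21 and 10.11 in GHRH-KO livers and 9.63, 9.67 and 9.82 in control livers. The groups did not overlap, and the level was 1.38-fold (95% interval 1.15 to 1.65, log2 fold change 0.46, FDR 0.101). The other 5 averaged lower. Over the 6 genes the median log2 fold change was -0.21. With 1 liver left out it ran from -0.33 to 0.026, so its sign was not stable. Stub1 (CHIP), the ubiquitin ligase that marks chaperone-bound clients, read 10.02, 9.79 and 9.99 in GHRH-KO livers and 10.21, 10.50 and 10.23 in control livers (0.768 of the control level, FDR 0.203). Its other probe set gave -0.44 on the log2 scale (FDR 0.155), again with no overlap.

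Fkbp5 (FKBP51), a glucocorticoid-induced partner of HSP90 that restrains the glucocorticoid receptor, read 6.84, 8.12 and 7.05 in GHRH-KO livers and 7.83, 7.83 and 7.69 in control livers. GHRH-KO liver 5 was the highest of the 6 and GHRH-KO livers 4 and 6 were the lowest. Over all 6 livers the log2 fold change was -0.45 (FDR 0.478), and without GHRH-KO liver 5 it was -0.84 (FDR 0.0459), past the limits of a call. Without GHRH-KO liver 4 it was -0.20 (FDR 0.750) and without GHRH-KO liver 6 it was -0.31 (FDR 0.718), and the other tested probe set gave -0.16 (FDR 0.538) over all 6 livers. Fkbp4 (FKBP52), the relative that favours receptor activity, had -0.27 (FDR 0.581). Stip1 (HOP), which hands clients from HSP70 to HSP90, read 8.51, 6.84 and 8.45 in GHRH-KO livers and 7.82, 8.17 and 8.27 in control livers, and Ahsa1, the activator of the HSP90 ATPase, read 10.54, 9.97 and 10.45 in GHRH-KO livers and 10.28, 10.52 and 10.52 in control livers. GHRH-KO liver 5 was the lowest of the 6 for Stip1 and Ahsa1, and also for Fkbp4 and Stub1. For Stip1, GHRH-KO livers 4 and 6 read above every control liver, so its lower mean rested on GHRH-KO liver 5.

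The CCT chaperonin, a ring complex of related subunits, had 4 of 5 measured subunits higher in GHRH-KO livers. The median log2 fold change was 0.14, and it was 0.22 by the probe set of lowest p. Without probe sets with names ending in _s_at, _x_at or _a_at, Cct2 and Cct8 dropped out and the median was 0.050. That was the value of Cct3 by 1439679_at, which averaged 4.77 in GHRH-KO livers and 4.72 in control livers, near background. Cct8, at the upper end, read 10.66, 10.71 and 10.38 in GHRH-KO livers and 10.11, 10.19 and 10.23 in control livers, with no overlap (1.33-fold, 95% interval 1.08 to 1.63, FDR 0.171). Tcp1, at the lower end, read 11.01, 10.78 and 10.86 in GHRH-KO livers and 10.74, 11.05 and 10.85 in control livers (fold 0.999, interval 0.808 to 1.24). Cct2 also had no overlap at 1.10-fold (FDR 0.499), and its other probe sets gave log2 fold changes of -0.05 and 0.39.

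**Figure D3:**
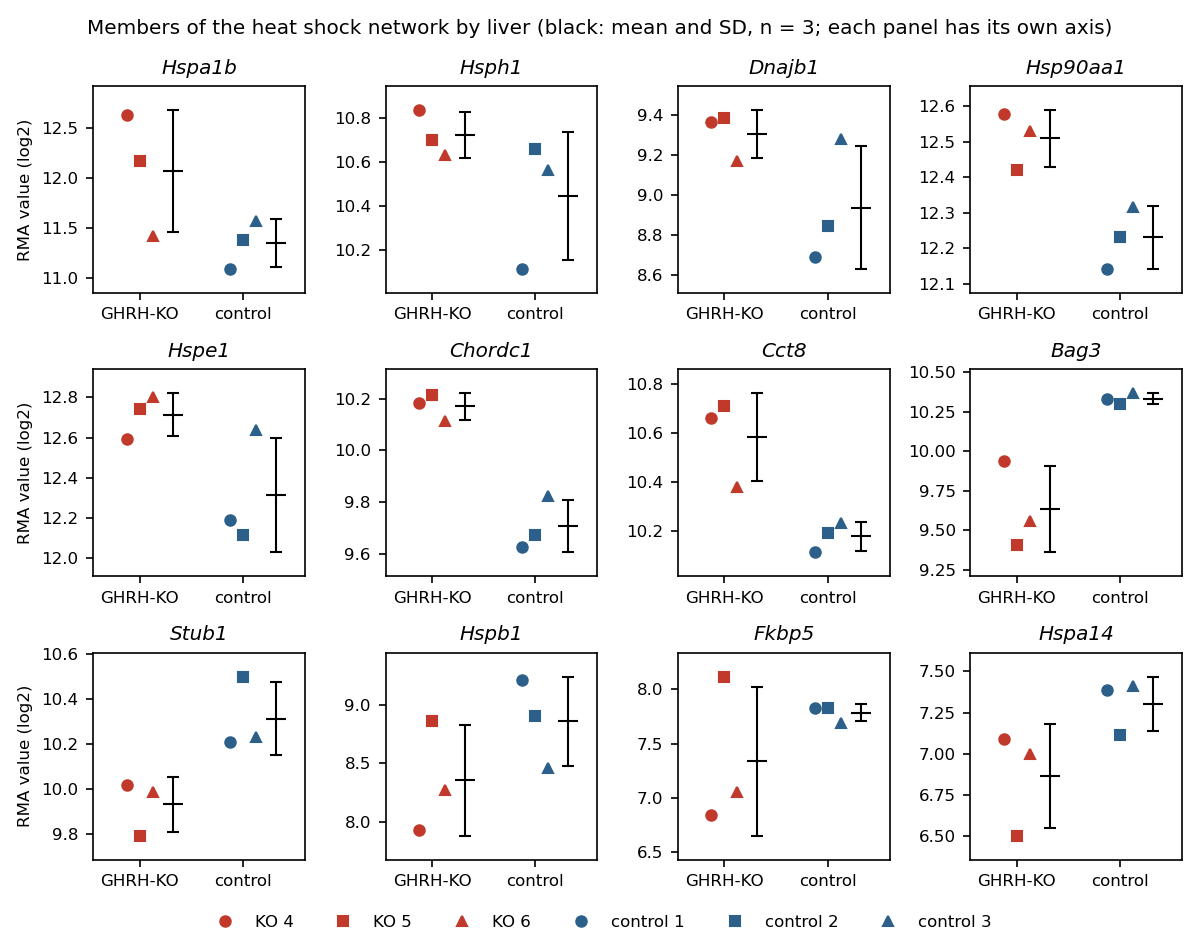
RMA value (log2, vertical axis, its own range in each panel) of 12 chaperone genes in the 3 GHRH-KO livers (red, left) and the 3 control livers (blue, right), with black bars for group mean and SD, and a marker shape for each liver. Groups are separate for Hsp90aa1, Chordc1, Cct8, Bag3, Stub1 and Hspa14, while GHRH-KO liver 6 overlaps the controls for Hspa1b and GHRH-KO liver 5 is the highest for Fkbp5.

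Of the heat shock factors, Hsf2 alone was measured, and dimly. It read 5.63, 3.12 and 5.71 in GHRH-KO livers and 5.77, 5.29 and 5.52 in control livers (log2 fold change -0.71, FDR 0.591). By this probe set the difference rested on GHRH-KO liver 5, and without it the value was 0.14. The other probe set, 1444436_at, was near background and gave -0.26 (FDR 0.396). It read 4.55, 4.63 and 4.68 in GHRH-KO livers and 4.80, 5.16 and 4.68 in control livers, with no drop in GHRH-KO liver 5.

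Low readings of single probe sets in GHRH-KO liver 5 recurred in the family. The 5 probe sets more than 1 log2 unit below every other array there belonged to Hsf2, Hspa4, Hspb8, Dnaja3 and Cct3. For Hspb8, 1417014_at read 9.26, 4.73 and 8.19 in GHRH-KO livers and 8.44, 8.45 and 8.40 in control livers, while the brightest probe set read 11.16 in that liver, inside the range of the others. For Hspa4, 1416147_at read 6.52 in GHRH-KO liver 5 and 8.50 to 8.99 in the other livers, and for Cct3, 1449645_s_at read 5.71 there and 7.91 to 8.34 elsewhere. No other probe set of Hsf2, Hspa4, Hspb8, Dnaja3 or Cct3 showed such a drop. Of 28 genes with several tested probe sets, 11 had probe sets of opposite sign (39.3%, against 43.7% of all such genes): Cct2, Cct3, Dnaja2, Dnaja3, Dnaja4, Hsp90aa1, Hspa4, Hspa8, Hspa9, Hspb8 and Trap1.

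**Figure D4:**
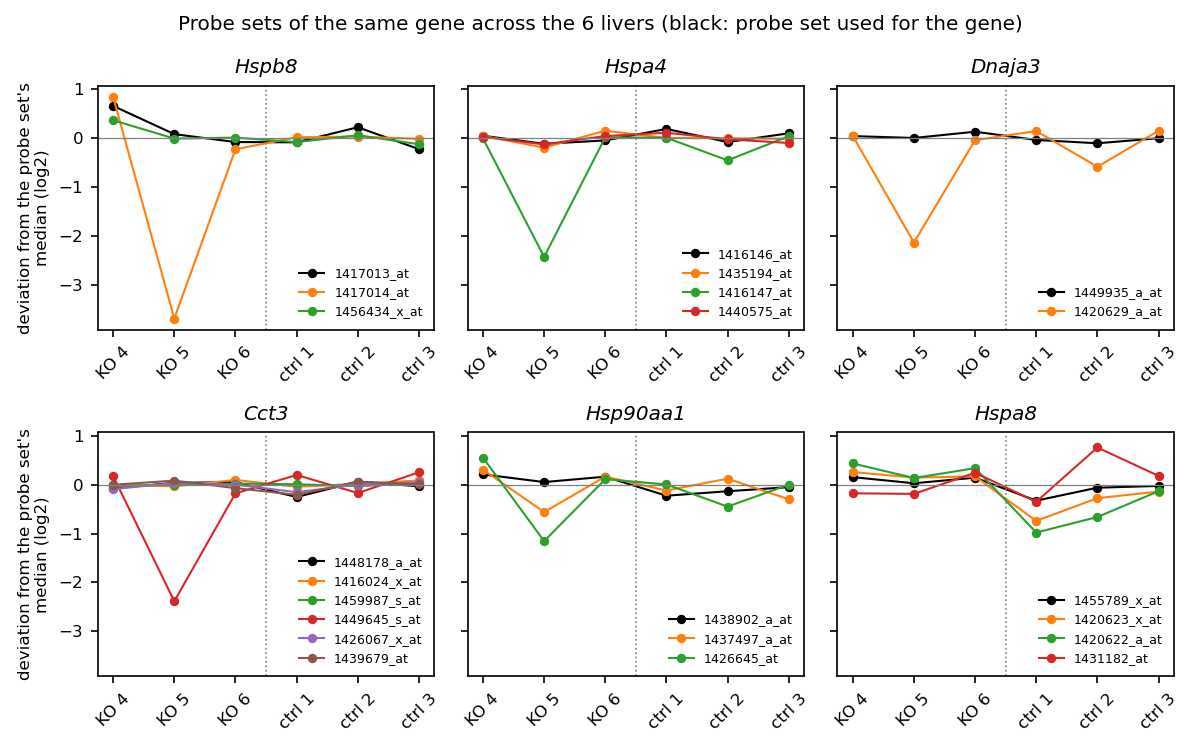
Deviation of each tested probe set from its own median over the 6 livers (log2, vertical axis) in GHRH-KO livers 4 to 6 and control livers 1 to 3 (horizontal axis) for 6 genes, with the probe set used for the gene in black. In GHRH-KO liver 5 a single probe set of Hspb8, Hspa4, Dnaja3 and Cct3 lies more than 1 unit below the rest while the others of the same gene do not.

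Beyond these families, 53 further genes of the chaperone network were tested: other HSP70 regulators, HSP90 cochaperones, CCT and prefoldin subunits, J-domain and BAG proteins, mitochondrial proteases, and heat shock factor targets of other kinds. In GHRH-KO livers 22 averaged higher and 31 lower, against 6292 and 6177 of all genes tested. The median log2 fold change was -0.03, beside 0.003 over all genes. Of the 53, 1 was called up and 0 down, where 0.786% and 0.97% of all genes were called. The called gene was Serpinh1 (HSP47), the collagen chaperone of the endoplasmic reticulum and a heat shock factor target. It read 7.90, 8.09 and 7.89 in GHRH-KO livers and 6.83, 6.88 and 6.96 in control livers (log2 fold change 1.07, FDR 0.00795). Collagen-making cells express it, and all 8 markers of stellate cells or fibroblasts averaged higher, none called. Log2 fold changes of these markers ran from 0.01 (Col1a1) and 0.05 (Des) to 1.16 (Col3a1). The markers had mean levels of 8.46 to 8.80 in GHRH-KO livers and 7.92 to 8.51 in control livers. Their part in the Serpinh1 value was not tested. All 7 genes of mitochondrial quality control, which refold or degrade imported proteins, averaged lower in GHRH-KO livers with a median of -0.15. The lowest FDR among them was 0.293. GHRH-KO liver 5 was the lowest array for Clpx, Htra2, Yme1l1 and Afg3l2, but not for Lonp1, Clpp and Clpb. Yme1l1 read 8.86, 8.07 and 8.94 in GHRH-KO livers and 8.79, 8.37 and 8.99 in control livers. Afg3l2 read 9.48, 9.26 and 9.48 in GHRH-KO livers and 9.55, 9.30 and 9.48 in control livers. Averaged without GHRH-KO liver 5, Yme1l1 and Afg3l2 were higher in GHRH-KO livers and the rest of the 7 stayed lower. The common direction of all 7 thus rested on that liver, and no fit of the list was run without it.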

How the data were processed

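Liver RNA of 3 GHRH-KO and 3 control mice was hybridized to Affymetrix Mouse Genome arrays. The authors processed the arrays by RMA (version not stated in the sources used here), which corrects background, equalizes the array distributions by quantile normalization and gives 1 summary for a probe set. The deposited values are log2 RMA values of all 45101 probe sets, and the detection filter of the methods, which needs raw signals, could not be repeated.

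After removal of 64 control probe sets, the brightest by mean over the 6 arrays were kept, as many as that filter had kept. The annotation assigns 34958 probe sets to 1 gene and 932 to more, and it leaves 9211 without an entry. The 43 genes had 107 probe sets, of which 98 were tested and 9 were too dim. All 41 genes with a probe set passed, each by its probe set with the highest mean. The difference between genotypes (GHRH-KO minus control) was estimated by limma 3.58.1 (lmFit and eBayes, two-sided) in R 4.3.3, with Benjamini-Hochberg adjustment over all probe sets tested. The fit was also run on simulated data with independent noise and planted differences larger than that of any of the 41 genes. That run held no outlying array, so it cannot back the calls given here. Promoter windows were searched and figures drawn with Python 3.11.15 and matplotlib 3.10.9.

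Values per liver are given for genes called or at FDR under 0.05, the 12 largest log2 fold changes, the ends of each family and the classic heat shock genes. Values of other genes, such as Stip1, Ahsa1 and Hspa9, were added after they were seen. Members and lists were chosen with earlier results of these data known. Alternatives covered the filter, normalization, choice of probe set, variance model, array weights and each array left out.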

Additional observations from a re-analysis of the deposited data

How the results depend on the processing

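No paired analysis was possible because the sample labels give no litter or pair for the mice. The upward call, Hspa4l, was kept under 8 alternatives (FDR 0.0311 to 0.0446). It was lost with median centring of each array (FDR 0.0501) and with each liver left out, which gave 0 to 0 upward calls, 0 to 1 downward calls (Fkbp5 without GHRH-KO liver 5) and 0 to 1 genes at FDR under 0.05. Median centring gave 0 upward calls and 0 genes at FDR under 0.05. Leaving out GHRH-KO liver 5 and control liver 2 together, a choice made after seeing the data, also gave 0 of each. Array weights gave 1 downward call (Bag3) and 2 genes at FDR under 0.05. Over all genes, calls numbered 219, against 82 to 166 with 1 liver left out, 106 with both left out, 217 with median centring and 536 with array weights.

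The median log2 fold change of the 41 genes was -0.0020 by the probe set with the lowest p and -0.041 by the mean of all probe sets. Without probe sets with names ending in _s_at, _x_at or _a_at it was -0.011, over fewer genes. That choice left Hspb1, Hsph1, Cct2, Cct8, Stub1, Dnajb2 and Dnaja3 with no tested probe set. For the cytosolic genes the median was -0.10, -0.063 and -0.015 under the same choices. For the mitochondrial genes it was 0.26, 0.054 and 0.15, the last without Dnaja3. The sign of the overall median thus depended on the choice of probe set.

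Single genes were followed under the alternatives for 23 named genes only, and their signs turned as follows, all without a call. Other genes, such as Stip1 and Ahsa1, were not followed in this way. Leaving out 1 liver at a time gave -0.0071 to 0.13 for Bag1, -1.15 to 0.14 for Hsf2 and -0.074 to 0.084 for Tcp1. Bag1 gave -0.0028 with array weights, -0.0071 without GHRH-KO liver 5 and -0.026 without that liver and control liver 2. Hsf2 gave 0.14 and 0.024 without the same livers. Tcp1 gave 0.030 with array weights, 0.048 without GHRH-KO liver 5, 0.011 without GHRH-KO liver 6, 0.084 without control liver 2 and 0.13 without GHRH-KO liver 5 and control liver 2. Without probe sets with names ending in _s_at, _x_at or _a_at Hsp90aa1 gave -0.015 and Hspa8 -0.24. The mean of all probe sets gave -0.21 for Hspb8 and 0.034 for Trap1, and the lowest p gave 0.26 for Trap1. Of the 362 values of named genes under alternatives, 337 kept direction and side of the threshold. That count says little about stability. Many genes were named for a large fold change, and Hspa4l alone passed the threshold in the main fit. Hspa4l lost it under 8 alternatives. The cause of the turned signs was not tested. The number of arrays, 3 in each group, limits what could be detected.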
